A study of Rattus norvegicus with 20 samples.

Results

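Granule cells of the dentate gyrus were followed through the symbols of 10 marker genes, Prox1, C1ql2, C1ql3, Dsp, Tdo2, Calb1, Trpc6, Glis3, Dock10 and Stxbp6, in mRNA of the rat hippocampus. The symbols come from a list of dentate marker genes and were looked up among the 17168 gene symbols of each count table. Of the 10 symbols, 7 were found, and Dsp, Glis3 and Dock10 were not listed in the tables and were not analysed here. Of the 7 found, Prox1, C1ql2, C1ql3, Calb1, Trpc6 and Stxbp6 had a mean of at least 10 counts in both tables, and these 6 carry the results. Tdo2 was near 0.

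The study compared the hippocampus of 20 female rats aged 4 months, each sequenced as a single stranded mRNA library, in a genotype table and a treatment table. The genotype table held 5 wild-type rats on rodent chow (WTNT) and 5 untreated transgenic rats (TGNT) of the Fisher line TgF344-AD. In this line the prion promoter drives the human transgenes APPsw, the amyloid precursor protein with the Swedish mutation, and PS1-∆E9, a mutant presenilin. The treatment table held 4 other untreated TgF344-AD rats (also TGNT) and 6 TgF344-AD rats (TGTR) that ate diazoxide at 10 mg/kg per day and dibenzoylmethane at 200 mg/kg per day in their chow from day 52 to 4 months. No rat was shared between the tables, which were normalized apart, so values are compared only within a table. All rats had been perfused with saline, and the tissue was the hippocampus, whole and not split into subfields. The labels give the left side and the paper's methods the right.

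Total estimated counts per rat ran from 5848458 to 9926088 in WTNT and from 6610498 to 8117561 in TGNT of the genotype table. In the treatment table they ran from 11151973 to 13481985 in TGNT and from 9215039 to 14175594 in TGTR. Levels are the authors' RPM, read counts scaled to a common library size by TMM factors. A single count stood for 0.102 to 0.171 RPM in the genotype table and for 0.0706 to 0.101 RPM in the treatment table. As a check of the genotype labels, App averaged 1101 ± 47.5 RPM (SD, n = 5) in WTNT against 2187 ± 122 RPM (SD, n = 5) in TGNT.

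Granule cells are the principal neurons of the dentate gyrus, the entry gate of the hippocampus. They receive input from the entorhinal cortex and send unmyelinated mossy fibres to hilar mossy cells and to CA3 pyramidal cells, and they are among the few neurons still born in adult rodents. Prox1, a homeobox transcription factor, is needed for their formation and identity. C1ql2 and C1ql3 encode secreted C1q-like proteins that organize synapses, Trpc6 a cation channel gated by diacylglycerol, Stxbp6 the SNARE-binding protein amisyn, and Calb1 the calcium buffer calbindin, which CA1 pyramidal cells and interneurons also make.

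The label was checked against the data. All 6 measured members were present in every rat, and genes on a separate list of granule cell genes ran with them from rat to rat, as given below for each table. Calb1 was the exception: its level did not follow that of the other 5 members in either table, so the pattern shared in both tables is that of Prox1, C1ql2, Trpc6 and Stxbp6, with C1ql3 tied firmly to them in the genotype table alone. Running with the members was not particular to granule cell genes. The median correlation with the members was 0.897 and 0.787 for the granule list and 0.773 and 0.845 for CA3 genes, by table. Without the low rats named below these were 0.836 and 0.639, and 0.530 and 0.178. In whole hippocampus, fewer granule cells and less RNA per granule cell cannot be told apart.

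Some libraries stood apart from the rest of their table. WTNT 3 had the lowest level of all 6 measured members, and in the treatment table TGNT 1 and TGTR 5 were the 2 lowest rats for Prox1. The 7 genes of the neocortex and subiculum list summed to 691.8 RPM in WTNT 3, the highest of its table, and their most abundant gene was Etv1, with 416.9 RPM in this rat. In the treatment table the same list was highest in TGTR 5, at 559 RPM, and next highest in TGNT 1, at 476.9 RPM. TGTR 5 also carried 3035 RPM of 13 choroid plexus genes, of which Ttr alone made up 2501 RPM, against 156 RPM in TGTR 6 and 14.7 to 29.5 RPM in the other 8 rats of that table. The meninges and fibroblast list summed to 748 RPM in TGTR 5 and to between 66.2 and 113.8 RPM in the others. Values without WTNT 3, or without TGNT 1 and TGTR 5, are given beside the results that these rats move, and which rats to leave out was chosen after the data were seen.

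Promoters are shown for members whose levels ran together between rats. RefSeq promoter windows (build GRCr8, 250 bases before to 50 after the start) were found for 8 of the 10 symbols and for 4 of the 6 measured members, C1ql2, C1ql3, Trpc6 and Stxbp6. The counts were made on an earlier build, rn6, and are joined to the windows by symbol alone. Capitals mark matches to CANNTG (an E-box) or TATAAA, the box named after its letters, searched on both strands. The windows are chr13:34023652-34023951 on the plus strand for C1ql2, chr17:81038195-81038494 on the minus strand for C1ql3, chr8:14043966-14044265 on the plus strand for Trpc6 and chr6:67884289-67884588 on the minus strand for Stxbp6.
C1ql2: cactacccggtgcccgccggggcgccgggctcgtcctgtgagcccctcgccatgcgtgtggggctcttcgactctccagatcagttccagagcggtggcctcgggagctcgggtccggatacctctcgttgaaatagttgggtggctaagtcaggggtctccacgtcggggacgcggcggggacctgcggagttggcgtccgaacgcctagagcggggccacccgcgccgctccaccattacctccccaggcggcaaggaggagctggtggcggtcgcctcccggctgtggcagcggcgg
C1ql3: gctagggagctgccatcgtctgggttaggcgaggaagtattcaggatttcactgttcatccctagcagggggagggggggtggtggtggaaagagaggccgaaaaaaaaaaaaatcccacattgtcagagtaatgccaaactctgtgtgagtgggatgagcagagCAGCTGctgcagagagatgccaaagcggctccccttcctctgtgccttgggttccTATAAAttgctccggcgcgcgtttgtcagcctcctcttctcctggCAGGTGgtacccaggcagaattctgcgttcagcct
Trpc6: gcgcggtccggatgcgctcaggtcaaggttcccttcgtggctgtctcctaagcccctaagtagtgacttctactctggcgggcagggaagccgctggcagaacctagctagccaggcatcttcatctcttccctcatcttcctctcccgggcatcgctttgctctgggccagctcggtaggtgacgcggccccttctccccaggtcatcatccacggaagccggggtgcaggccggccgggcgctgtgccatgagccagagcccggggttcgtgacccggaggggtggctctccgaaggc
Stxbp6: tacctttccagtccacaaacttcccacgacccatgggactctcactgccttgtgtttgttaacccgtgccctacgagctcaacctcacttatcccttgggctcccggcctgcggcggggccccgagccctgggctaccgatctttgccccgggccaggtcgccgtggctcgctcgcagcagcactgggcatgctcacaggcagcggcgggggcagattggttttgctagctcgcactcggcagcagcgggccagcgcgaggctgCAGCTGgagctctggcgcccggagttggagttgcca

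The C1ql3 window held CAGCTG at bases 166 to 171 and CAGGTG at bases 266 to 271, counted from 1 at the 5′ end, as well as TATAAA at bases 221 to 226. The Stxbp6 window held CAGCTG at bases 265 to 270. The windows of C1ql2 and Trpc6 held neither motif. Of all 33469 windows of the reference, 72.1% held CANNTG, so an E-box match is common, and 4760 windows held TATAAA. GC content was 70.3% in C1ql2, 54.7% in C1ql3, 65.3% in Trpc6 and 65.7% in Stxbp6, and its median over all windows was 51.7%. A NeuroD-type E-box, CAGATG, is held by 16.6% of all windows, a GC box, GGGCGG, by 33.1%, and a cAMP response element, TGACGTCA, by 1.83%, and each had 0 matches in the 4 windows shown. The E-box and the TATA box marked in capitals were searched only after that was seen.

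The first comparison asks whether granule cell transcripts differ between untreated transgenic and wild-type females before plaques form. No measured member was called between TGNT and WTNT rats, and the groups overlapped for all 6. The log2 fold changes of the other 5 members lay between -0.16 and 0.00. In WTNT, the ratio of the highest rat to the lowest, WTNT 3, was 3.95 for Prox1 and 11.5 for C1ql2. For C1ql3, Trpc6 and Stxbp6 it was 2.24 to 2.52. Within TGNT the ratio of the highest to the lowest rat was 1.43 to 2.33 for these 5 members. Calb1 stood farthest from 0, with a log2 fold change of 0.33 above WTNT, and its groups overlapped.

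In WTNT rats 1 to 5, Prox1 measured 186, 144, 47.2, 182 and 89.2 RPM. Among untreated transgenic rats 1 to 5 (TGNT) it measured 173, 87.5, 93.4, 102 and 119 RPM. WTNT 1 and WTNT 4 were high and WTNT 3 was low, and every TGNT rat lay inside the WTNT range. The means were 129.8 ± 60.4 RPM (SD, n = 5) in WTNT against 115 ± 34.5 RPM (SD, n = 5) in TGNT (exact permutation test of the group means, two-sided, p = 0.619). In the fit to the counts of all genes with edgeR's quasi-likelihood test, the log2 fold change of Prox1 was -0.16 (standard error, SE, 0.287, with an adjusted p of 1), and it was -0.39 without WTNT 3 and -0.01 without WTNT 1.

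The C1q-like genes gave the same picture. C1ql2 measured 29.2, 17.3, 2.54, 23.0 and 14.18 RPM in WTNT rats 1 to 5. The TGNT values of rats 1 to 5 were 28.6, 14.8, 12.3, 13.5 and 13.5 RPM. WTNT 3, with only 20 counts, was far below all other rats, TGNT 1 stood above the other TGNT rats, and the groups overlapped. Its log2 fold change was -0.03 (SE 0.393, adjusted p = 1), and its direction was not settled: it was 0.23 without WTNT 1 and with limma-trend on log2(RPM + 0.1), and -0.33 without WTNT 3.

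C1ql3 measured 60.5, 45.9, 24.0, 53.1 and 38.4 RPM in WTNT rats 1 to 5. TGNT rats 1 to 5 had 62.0, 44.2, 36.5, 35.5 and 41.9 RPM. The groups overlapped, with WTNT 3 again lowest, and WTNT 1 and TGNT 1 were the high rats. The means of 44.4 ± 14.1 RPM (SD, n = 5) in WTNT against 44.0 ± 10.7 RPM (SD, n = 5) in TGNT did not differ beyond the spread between rats (exact permutation test, two-sided, p = 0.952). Its log2 fold change of 0.00 (SE 0.20, adjusted p = 1) became -0.01 with RLE factors and with DESeq2, -0.17 without WTNT 3 and 0.13 without WTNT 1.

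Trpc6 measured 64.6, 63.2, 26.9, 59.4 and 37.9 RPM in WTNT rats 1 to 5. The TGNT rats 1 to 5 had 54.4, 40.1, 38.2, 46.4 and 49.6 RPM. WTNT rats 1, 2 and 4 lay above every TGNT rat and WTNT rats 3 and 5 below every one of them, so the wider spread was in WTNT. Its log2 fold change was -0.13 (SE 0.194, adjusted p = 1), -0.31 without WTNT 3 and -0.03 without WTNT 1. Stxbp6 ran from 39.4 RPM in WTNT 3 to 88.3 RPM in WTNT 1, and from 49.7 RPM in TGNT 3 to 90.8 RPM in TGNT 1. Its groups overlapped too, with a log2 fold change of -0.06 (SE 0.198, adjusted p = 1), which was 0.05 without WTNT 1 and -0.22 without WTNT 3.

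Calb1 had another order of rats. It measured 114, 93.8, 88.2, 103 and 151 RPM in WTNT rats 1 to 5. Its TGNT values, rats 1 to 5, were 185, 134, 143, 108 and 119 RPM. TGNT 1 was the highest rat and WTNT 3 the lowest, and WTNT 5 lay above every TGNT rat but TGNT 1, so the groups overlapped. The means were 109.9 ± 25.0 RPM (SD, n = 5) in WTNT against 138 ± 29.7 RPM (SD, n = 5) in TGNT (exact permutation test, two-sided, p = 0.151). The log2 fold change was 0.33 (SE 0.149, adjusted p = 1). Its unadjusted p was 0.0397, and under 0.05 in 8 of 18 alternative fits. The fold change was above 0 in all 18, from 0.21 without TGNT 1 to 0.48 without WTNT 5.

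Tdo2, an enzyme of tryptophan breakdown, had 0, 0, 1, 0 and 2 counts in WTNT rats 1 to 5 and 0, 0, 1, 0 and 0 in TGNT rats 1 to 5. It was below the floor of 3 counts in every rat of both tables, so no fold is given and no difference was detectable at this depth.

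**Figure D1:**
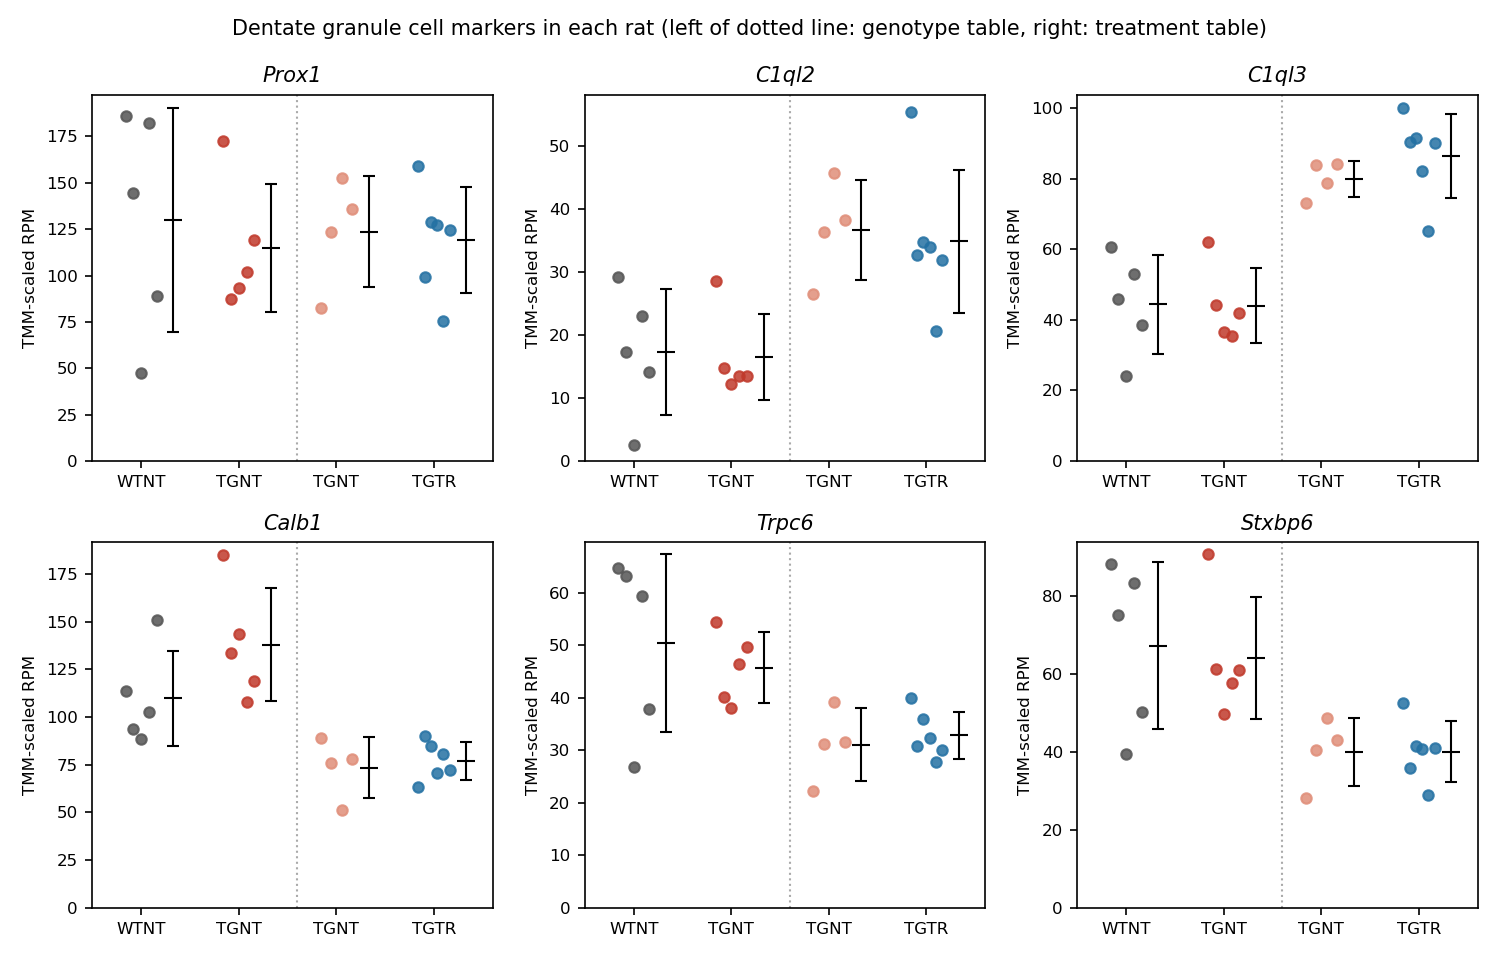
Level of each of the 6 measured members in RPM, 1 point per rat and 1 panel per member, by group, with bars for the mean and SD of each group. The groups overlap in every panel of both tables, and the wide spread in WTNT comes with a low WTNT 3, such as 2.54 RPM for C1ql2.

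At the threshold used for all genes, an adjusted p under 0.05 with a 1.5-fold or larger change, 0 of 6 members were called between TGNT and WTNT by edgeR's quasi-likelihood test, against 0.0116% of all 17168 genes. DESeq2 and limma-trend also called 0. At an unadjusted p under 0.05, edgeR and DESeq2 each had 1 member, Calb1, and limma-trend had 0, against 3.23% of all genes by edgeR. Without WTNT 3 the 1 member was Trpc6. In 0 of 6 members did the groups not overlap, against 0.652% of the 11353 genes averaging 10 counts or more. The log2 fold change was above 0 in 2 members (Calb1 and C1ql3) and below 0 in 4, while it was above 0 in 52.4% of those genes. C1ql3 turned below 0 with RLE or upper quartile factors. The median over the 6 members was -0.05, beside 0.00626 over those genes, and it ranged from -0.26 without WTNT 3 to 0.09 without WTNT 1.

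The next comparison asks whether the co-treatment with diazoxide and dibenzoylmethane goes with other levels of the same transcripts in transgenic females. No measured member was called between TGTR and TGNT rats, and the groups overlapped for all 6. The widest gap in fold change was that of C1ql3, whose mean was 86.5 RPM in TGTR and 79.9 RPM in TGNT. Rats within a group again differed more than the group means did.

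Prox1 measured 82.5, 124, 153 and 136 RPM in TGNT rats 1 to 4. In TGTR rats its lowest, median and highest levels were 75.4, 126 and 159 RPM. TGTR 5 was the lowest rat and TGTR 1 the highest, TGNT 1 was the low rat of its group, and the TGNT range lay inside the TGTR range. The means were 124 ± 29.9 RPM (SD, n = 4) in TGNT against 119 ± 28.6 RPM (SD, n = 6) in TGTR (exact permutation test, two-sided, p = 0.805). The log2 fold change was -0.05 (SE 0.188, adjusted p = 1), but 0.05 without TGTR 5 and -0.20 without TGNT 1.

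C1ql2 measured 26.6, 36.3, 45.8 and 38.2 RPM in TGNT rats 1 to 4. In TGTR rats its lowest, median and highest levels were 20.6, 33.3 and 55.5 RPM. TGTR 5 and TGNT 1 were again the low rats of their groups and TGTR 1 the highest, and the groups overlapped. Its log2 fold change was -0.06 (SE 0.211, adjusted p = 1). It was 0.04 without TGTR 5, -0.19 without TGNT 1 and -0.25 without TGTR 1.

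C1ql3 measured 73.2, 83.8, 78.6 and 84.0 RPM in TGNT rats 1 to 4. In TGTR rats its lowest, median and highest levels were 65.0, 90.1 and 99.9 RPM. Of the 6 TGTR rats, 4 lay above every TGNT rat, TGTR 4 lay inside the TGNT range and TGTR 5 below it. The means were 79.9 ± 5.14 RPM (SD, n = 4) in TGNT against 86.5 ± 11.9 RPM (SD, n = 6) in TGTR (exact permutation test, two-sided, p = 0.338). The log2 fold change was 0.12 (SE 0.0952, adjusted p = 0.994). It stayed above 0 in all 18 alternative fits, with 0.08 without TGNT 1 and 0.07 without TGTR 1. It reached 0.19 without TGTR 5, where its adjusted p by edgeR was 0.906, within a range of 0.879 to 1 over the alternatives.

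Trpc6, Stxbp6 and Calb1 had overlapping groups as well. Trpc6 measured 22.3, 31.2, 39.1 and 31.7 RPM in TGNT rats 1 to 4 and from 27.8 to 40.0 RPM in TGTR rats, with a log2 fold change of 0.08 (SE 0.135, adjusted p = 1). It was -0.05 without TGNT 1 and 0.13 without TGTR 5. Stxbp6 measured 28.1, 40.4, 48.8 and 43.1 RPM in TGNT rats 1 to 4 and from 28.9 to 52.7 RPM in TGTR rats. Both group means of Stxbp6 came to 40.1 RPM, so the log2 fold change was 0.00 (SE 0.157, adjusted p = 1), and its direction was not settled: it was -0.13 without TGNT 1, 0.08 without TGTR 5 and below 0 with upper quartile factors.

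Calb1 again had its own order of rats. It measured 88.8, 75.7, 51.5 and 78.1 RPM in TGNT rats 1 to 4, and its lowest, median and highest levels in TGTR rats were 63.6, 76.6 and 90.3 RPM. TGNT 3, the TGNT rat with the most Prox1, had the least Calb1, and TGNT 1, with the least Prox1, had the most. The log2 fold change was 0.07 (SE 0.132, adjusted p = 1), -0.07 without TGNT 3 and 0.18 without TGNT 1. Tdo2 had 1 count in TGNT 3, TGTR 1 and TGTR 3 and 0 counts in the other rats.

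Between TGTR and TGNT, 0 of 6 members were called by edgeR's quasi-likelihood test, by DESeq2 or by limma-trend, and edgeR called 0% of all 17168 genes. At an unadjusted p under 0.05 the members numbered 0 with each of these tools, against 4.91% of all genes by edgeR, and C1ql3 was the 1 member that edgeR had at that level without TGTR 5 or with a block for the replicate number. In 0 of 6 members did the groups not overlap, against 1.46% of the 12026 genes averaging 10 counts or more. Of the 6 members, 4 had a log2 fold change above 0 and 2 below, beside 50.1% of those genes above 0. With upper quartile factors 3 were above 0. The members' median log2 fold change was 0.04, and that of those genes was 0.000246. Without TGTR 5 all 6 members lay above 0, with a median of 0.07, while without TGNT 1 there were 2 above and 4 below, with a median of -0.09. Whether the members differ between the genotype and the treatment comparison, which used other rats, was not tested.

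**Figure D2:**
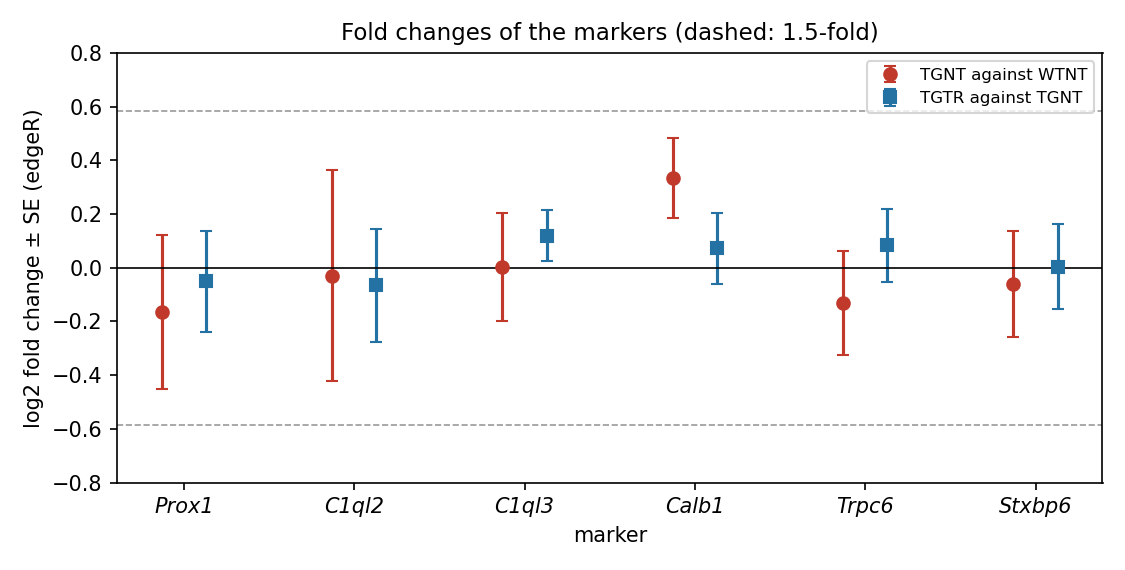
Log2 fold change of each measured member with its standard error, TGNT against WTNT and TGTR against TGNT, each from its own table, with dashed lines at 1.5-fold. Calb1 between TGNT and WTNT, at 0.33, is the farthest from 0, and the next is Prox1 in the same comparison, at -0.16.

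Most members had a wide spread between rats of the same group. The within-group SD of log2 RPM in the genotype table was 0.65 for Prox1, larger than in 99.5% of the 9219 genes averaging 50 counts or more in each table. For C1ql2 it was 1.03 (larger than in 99.9%), while the median gene had 0.15. Trpc6, Stxbp6 and C1ql3 had 0.42, 0.42 and 0.43, and Calb1 had the smallest of the 6, 0.30. Without WTNT 3 the SD of C1ql2 was 0.48 (larger than in 98.8%) and that of Prox1 0.44 (98.2%), the other 4 members had 0.29 to 0.34, and the median gene had 0.14. The SD of Prox1 in the treatment table was 0.38, larger than in 97.3% of these genes, and the median gene had 0.11. C1ql3 stood lowest there, with 0.18, larger than in 79.6%. Without TGNT 1 and TGTR 5 these fell to 0.22 for Prox1 (larger than in 93%) and 0.09 for C1ql3 (42.5%), while the median gene had 0.10.

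The members other than Calb1 tended to move up and down together. Each rat's departure is its log2(RPM + 0.1) minus the mean of its group. Averaged over these 5 members, the departure was 0.64, 0.29, -1.20, 0.49 and -0.22 in WTNT rats 1 to 5. In TGNT rats 1 to 5 it was 0.56, -0.12, -0.29, -0.14 and -0.01. WTNT 1, WTNT 4 and TGNT 1 were thus the rats rich in these transcripts and WTNT 3 the poorest. Among the rats of the treatment table it was -0.41, 0.04, 0.27 and 0.10 in TGNT rats 1 to 4, and from -0.48 in TGTR 5 to 0.42 in TGTR 1 among treated rats.

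**Figure D3:**
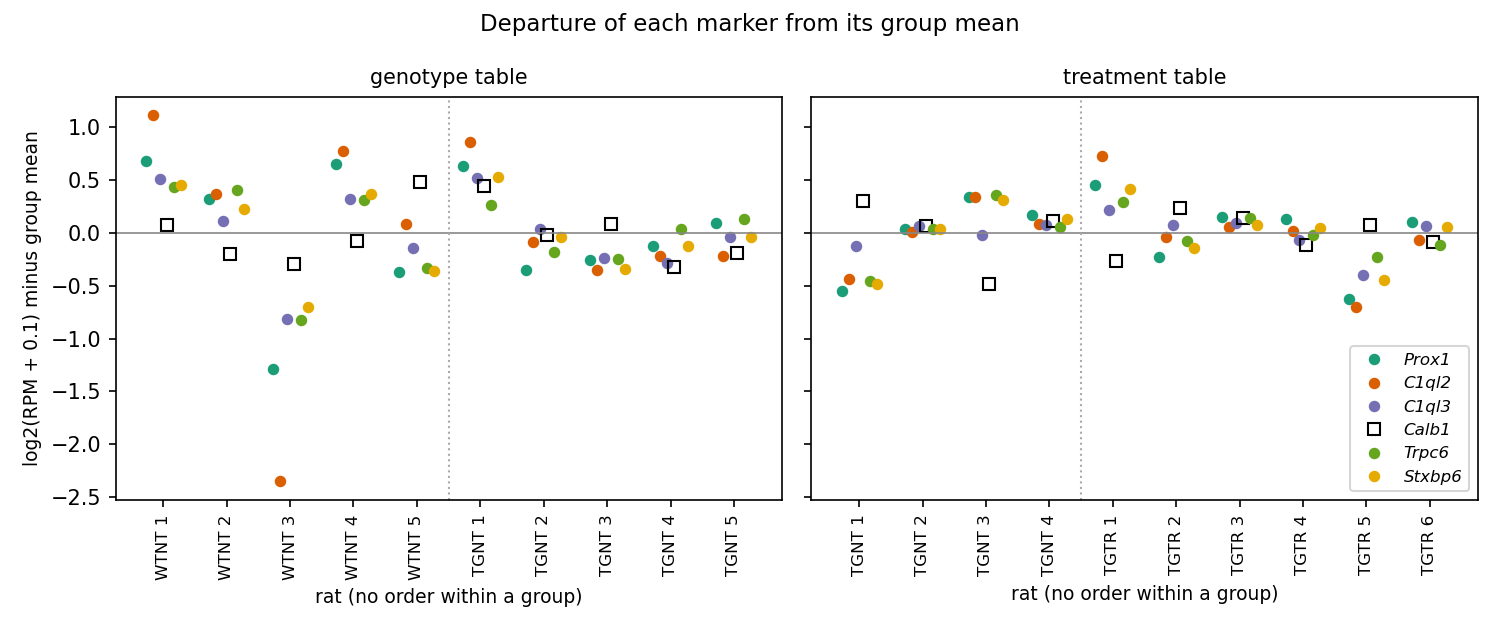
Departure of each rat from its group mean in log2(RPM + 0.1), 1 point per member (filled circles, and open squares for Calb1), with rats along the horizontal axis and 1 panel per table. The circles of the other 5 members tend to run together, lowest in WTNT 3 and low in TGNT 1 and TGTR 5 of the treatment table, and the squares do not follow them.

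Correlations between members were computed over the 10 rats of a table with the group means removed, for 15 pairs per table and 30 in all, each with exact permutation of the rats within groups, and the p-values were adjusted over the 30 pairs. In the genotype table the median Pearson's r was 0.895, and 10 of 15 pairs had r of at least 0.8, or 66.7%, against 1.74% of all 42490371 pairs among the 9219 genes. All 10 pairs among Prox1, C1ql2, C1ql3, Trpc6 and Stxbp6 had r between 0.874 and 0.962, with exact p from 0.000139 to 0.00479 and adjusted p from 0.00139 to 0.00898. Their Spearman's rho lay between 0.782 and 0.952. Without the 2 rats farthest from the median of the first gene, r was still between 0.641 and 0.959, so these relations did not rest on those rats. Calb1 was set apart, with r between 0.0721 and 0.464 to the other 5 and exact p from 0.219 to 0.870 (adjusted p 0.253 to 0.870, rho -0.04 to 0.43).

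The highest r of that table was between Prox1 and Trpc6, 0.962 (exact permutation p = 0.000903, adjusted p = 0.00301), with rho 0.952 (exact p = 0.00229). It was 0.892 without WTNT 1 and WTNT 3. The secreted pair C1ql2 and C1ql3 had r 0.953 (exact permutation p = 0.000278, adjusted p = 0.00167) and rho 0.903 (exact p = 0.00146). Without the same 2 rats it was 0.959. The members tied to synapses and channels thus ran with the transcription factor and with each other.

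In the treatment table the median r was 0.776, and 7 of 15 pairs, or 46.7%, had r of at least 0.8, against 2.03% of all gene pairs. The highest r was between Prox1 and Stxbp6, 0.989 (exact permutation p = 0.000116, adjusted p = 0.00139), with rho 0.976 (exact p = 0.000231). Without TGNT 1 and TGTR 5, the rats low in Prox1, it was 0.973. C1ql2 and Trpc6 had r 0.865 and rho 0.952, each with exact permutation p = 5.79e-05 (the smallest that the 17280 arrangements can give, adjusted p = 0.00139), and 0.982 without TGTR 1 and TGTR 5. Prox1, C1ql2, Trpc6 and Stxbp6 thus kept together in both tables.

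C1ql3 was tied to them less firmly in that table. Its r with Prox1 was 0.776 (exact permutation p = 0.0134, adjusted p = 0.0223, rho 0.588 with exact p = 0.0862) and 0.288 without TGNT 1 and TGTR 5, so this relation rested on those rats. With Stxbp6 it was 0.758 (exact permutation p = 0.0112, adjusted p = 0.0198, rho 0.60 with exact p = 0.0663) and 0.403 without the same rats. With C1ql2 it was 0.832 (exact permutation p = 0.0146, adjusted p = 0.0230, rho 0.636 with exact p = 0.0612), and 0.442 without TGTR 1 and TGTR 5. With Trpc6 it was 0.583 (exact permutation p = 0.0337, adjusted p = 0.0505, rho 0.612 with exact p = 0.0602) and 0.298 without TGNT 1 and TGTR 5.

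Calb1 in the treatment table ran opposite to the other members by sign, with r from -0.743 to -0.193 and a median of -0.693. None of its 5 pairs passed after adjustment, with exact permutation p from 0.0398 to 0.539 and adjusted p from 0.0545 to 0.558 (rho -0.648 to -0.00606). Of all 15 pairs, 9 passed an adjusted p of 0.05 by r and 6 by rho.

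**Figure D4:**
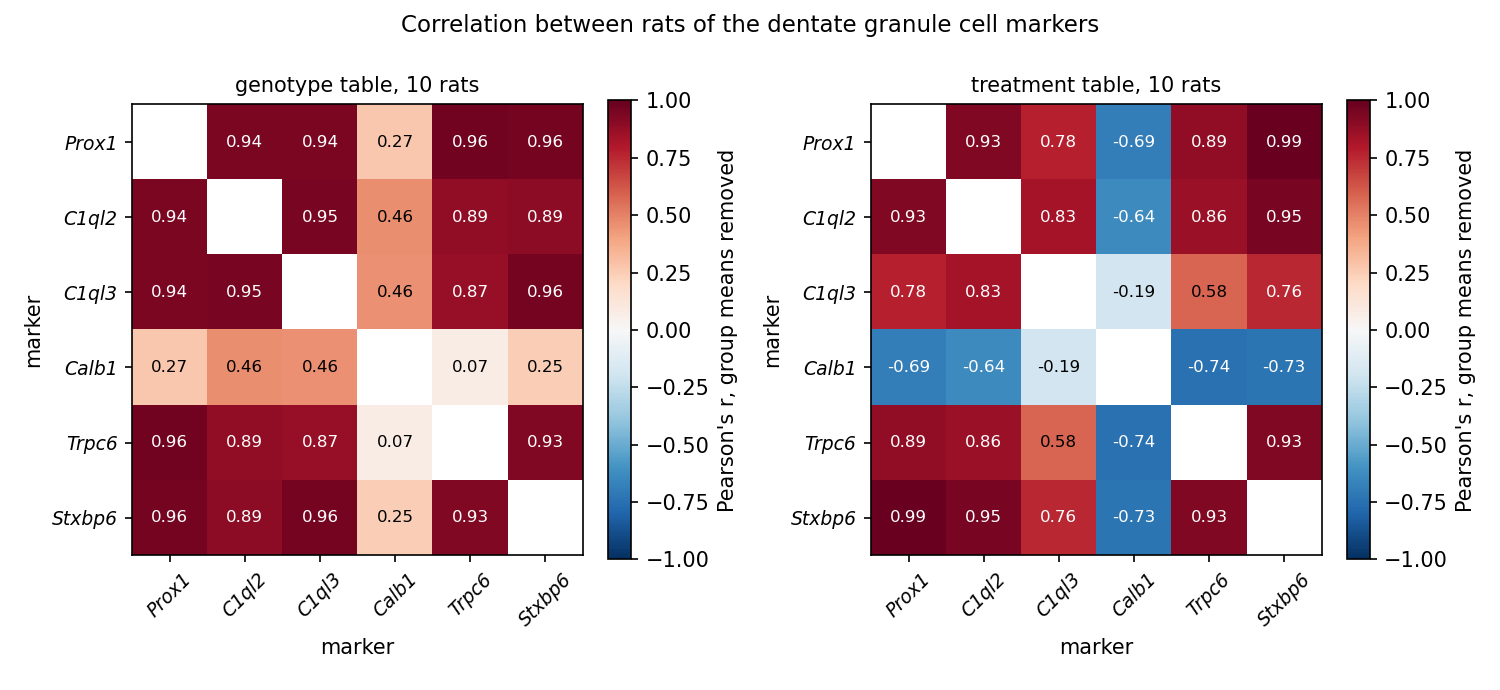
Pearson's r between each pair of measured members over the 10 rats of a table, group means removed, as coloured squares with 1 panel per table. The 5 members other than Calb1 form a block of high r in the genotype table (0.874 to 0.962) and a looser one in the treatment table (0.583 to 0.989, lowest for C1ql3 with Trpc6). The squares of Calb1 are paler in the genotype table (0.0721 to 0.464) and of the opposite sign in the treatment table (-0.743 to -0.193).

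Other cell type lists were set beside the members. The 6 standardised members were averaged in each rat, and each gene's r with this mean is given as a description, first for the genotype and then for the treatment table. Where medians are given without these rats, WTNT 3 is left out of the first table and TGNT 1 and TGTR 5 of the second. Among other granule cell genes, 14 of 16 were found and 12 had a mean of at least 50 counts, and all 12 had r above 0 in both tables. Their median r was 0.897 in the genotype table and 0.787 in the treatment table, and 9 of 12 were over 0.5 in both. Without these rats the medians were 0.836 and 0.639, and all 12 stayed above 0. Leaving Calb1 out of the mean as well gave 0.789 and 0.658, with 12 and 11 of 12 above 0. Bcl11b, a transcription factor and the most abundant of them in the genotype table, had r of 0.932 with Prox1 (exact permutation p = 0.00535, adjusted over 32 relations p = 0.0171, rho 0.915 with exact p = 0.00688), and 0.814 without WTNT 1 and WTNT 3. Pitpnm2, the most abundant in the treatment table, had r of 0.969 with Prox1 (exact permutation p = 0.000231, adjusted p = 0.00741, rho 0.879 with exact p = 0.000868), and 0.987 without TGNT 1 and TGTR 5. These 32 relations of Prox1 with the most abundant gene of each of 16 lists were added after the data were seen. Their rho is given with an unadjusted exact p. With exact permutation p adjusted over the 32, some relations passed 0.05 by r but not by rho. In the genotype table this was Rgs14 (0.0844 by rho). In the treatment table these were Rgs14 (0.0560), Dcx (0.142), Ociad2 (0.0505), Plekhg1 (0.0844) and Mbp (0.0535). Gad1 in the treatment table passed by rho (0.044) but not by r.

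Between the groups, none of the other granule cell genes was called. Of 13 with a mean of at least 10 counts, 7 had a log2 fold change above 0 and 6 below in each table, the medians were 0.01 and 0.02, and 0 had an unadjusted p under 0.05 in edgeR. The even split between genotypes rested on single rats: without WTNT 3, 1 lay above 0 and 12 below (median -0.18), without TGNT 1 it was 3 and 10 (-0.14), and without WTNT 1 it was 10 and 3 (0.10). Between treatments 9 lay above 0 and 4 below without TGTR 5 (0.04), and 5 and 8 without TGNT 1 (-0.02). The smallest p belonged in both tables to Lrrtm4, a synaptic adhesion gene, with log2 fold changes of 0.20 (SE 0.119, adjusted p = 1) and 0.13 (SE 0.0886, adjusted p = 0.990). Their sum ran from 840.1 RPM in WTNT 3 to 1641 RPM in WTNT 1, and from 1074 RPM in TGNT 1 to 1576 RPM in TGTR 1.

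Genes of the layer where new granule cells are born had mixed relations to the members. Of 13 genes in the immature neuron list, 11 were found, and the 7 with at least 50 counts had a median r of -0.116 and -0.524 (-0.173 and -0.08 without these rats, and -0.217 and 0.05 without Calb1 as well). Of the 7, 3 had r above 0 in the genotype table and 2 in the treatment table, 1 was over 0.5 in both and 1 under -0.5 in both. Mki67, a gene of dividing cells, had 0.818 and -0.524. Dcx, a microtubule protein of young neurons and the most abundant of them, had r with Prox1 of -0.585 (exact permutation p = 0.140, adjusted p = 0.205, rho -0.60 with exact p = 0.16) in the genotype table, and -0.563 without WTNT 1 and WTNT 3. Its treatment-table value was -0.898 (exact permutation p = 0.00382, adjusted p = 0.0171, rho -0.648 with exact p = 0.0666), and -0.839 without TGNT 1 and TGTR 5. Of the 10 genes at the count minimum, 5 had a log2 fold change above 0 and 5 below, in either comparison. Mki67 had the smallest p of the list in the treatment table, with a log2 fold change of -0.25 (SE 0.0826, adjusted p = 0.964). In the genotype table it was Nes, at -0.19 (SE 0.124, adjusted p = 1).

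The targets of mossy fibres differed. Of the hilar mossy cell genes, 4 of 4 were found, and the 2 with at least 50 counts, Calcrl and Ociad2, ran opposite to the members. Their median r was -0.633 and -0.508 (-0.646 and -0.295 without these rats), beside -0.456 and -0.572 for the endothelial list. Whether these 2 genes stand for mossy cells in whole hippocampus was not tested. For Ociad2, their most abundant gene, r with Prox1 was -0.757 (exact permutation p = 0.0322, adjusted p = 0.0737, rho -0.855 with exact p = 0.0182) and -0.808 (exact permutation p = 0.00399, adjusted p = 0.0171, rho -0.806 with exact p = 0.0111), and -0.646 and -0.746 without the 2 farthest rats. CA3 genes, 5 of 6 found, ran with the members, with a median r of 0.773 and 0.845 over 4 genes, but 0.530 and 0.178 without these rats. Grik4, a kainate receptor subunit and the most abundant CA3 gene, had r with Prox1 of 0.714 (exact permutation p = 0.0632, adjusted p = 0.112, rho 0.733 with exact p = 0.0239) and 0.731 (exact permutation p = 0.0372, adjusted p = 0.0793, rho 0.345 with exact p = 0.351). Without the 2 farthest rats these were 0.291 and -0.289, so this relation rested on those rats.

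Of the other pyramidal fields, CA1 genes (7 of 7 found, 6 with at least 50 counts) had a median r of 0.04 and 0.456, and 0.117 and 0.06 without these rats (0.105 and -0.04 without Calb1 as well). Of the CA2 genes, 3 of 5 were found and 2 had at least 50 counts, with a median r of 0.341 and 0.521 (0.142 and 0.07 without these rats). These 2 differed: Rgs14 had r of 0.868 and 0.887 with the mean of the members, and the other gene -0.186 and 0.155. Rgs14, the most abundant CA2 gene, had r with Prox1 of 0.877 (exact permutation p = 0.0135, adjusted p = 0.0394, rho 0.842 with exact p = 0.0369) and 0.940 (exact permutation p = 0.00150, adjusted p = 0.0133, rho 0.770 with exact p = 0.0157), and 0.651 and 0.801 without the 2 farthest rats. For Wfs1, the most abundant CA1 gene, it was 0.241 (exact permutation p = 0.486, adjusted p = 0.622, rho 0.188 with exact p = 0.563) in the genotype table. Its value over the treatment table was 0.825 (exact permutation p = 0.00480, adjusted p = 0.0171, rho 0.855 with exact p = 0.00613), and 0.865 without TGNT 1 and TGTR 5.

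Neocortex and subiculum genes ran against the members in both tables. All 7 were found, 0 of the 6 with at least 50 counts had r above 0 in either table, and the median r was -0.596 and -0.557. Without these rats the medians were -0.599 and -0.180, with 0 of 6 above 0, or 1 of 6 in each table when Calb1 is left out of the mean. Their sum was 371.9, 474.5, 691.8, 412.9 and 638.6 RPM in WTNT rats 1 to 5, highest in WTNT 3 where the members were lowest and lowest in WTNT 1 where Prox1 was highest. In TGNT rats 1 to 5 it was 536, 613, 639, 543 and 559 RPM. In TGNT rats 1 to 4 of the treatment table it was 476.9, 311.8, 324.5 and 355 RPM, and in TGTR rats 1 to 6 it was 365, 422, 418.6, 400.5, 559 and 429 RPM. None of the 7 genes averaged under 1 count. Their part in the spread of the members was not tested.

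Etv1, the most abundant of these genes, had r with Prox1 of -0.883 (exact permutation p = 0.00396, adjusted p = 0.0171, rho -0.915 with exact p = 0.00667) in the genotype table, and -0.807 without WTNT 1 and WTNT 3. In the treatment table it was -0.736 (exact permutation p = 0.0234, adjusted p = 0.0577, rho -0.576 with exact p = 0.114), and -0.429 without TGNT 1 and TGTR 5. Between genotypes, 4 of 7 genes of the list had a log2 fold change above 0 and 3 below (6 and 1 without WTNT 3), and Fezf2, with the smallest p, had 0.42 (SE 0.185, adjusted p = 1). Between TGTR and TGNT all 7 lay above 0 (6 of 7 without TGTR 5), with a median of 0.25, and the smallest p was that of Tbr1, 0.46 (SE 0.143, adjusted p = 0.957). None was called.

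**Figure D5:**
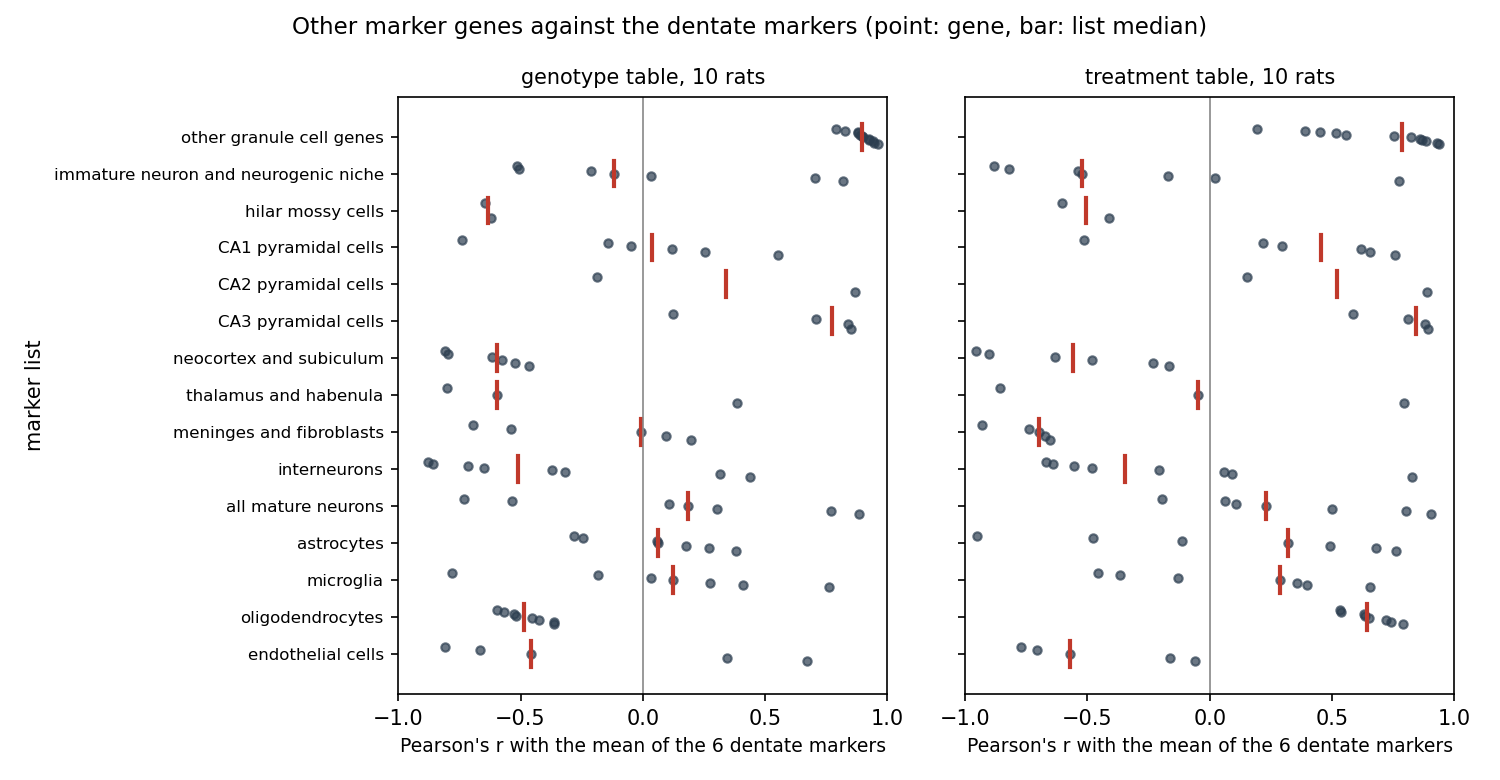
Pearson's r of every list gene with the mean of the standardised members, 1 point per gene and 1 line of points per cell type list, by table, with a mark at each list's median. Other granule cell genes (medians 0.897 and 0.787) and CA3 genes (0.773 and 0.845) lie to the positive side in both tables, and neocortex and subiculum genes (-0.596 and -0.557) to the negative side.

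Among glia and vessels the relation to the members differed by list and table. The 8 oligodendrocyte genes had r below 0 in the genotype table (median -0.485) and above 0 in the treatment table (median 0.642). Without these rats the medians were -0.113 and 0.307, and without Calb1 as well 0.09 and 0.424. With Prox1, Mbp, the most abundant of them in the treatment table, had r of 0.933 (exact permutation p = 0.000752, adjusted p = 0.0120, rho 0.782 with exact p = 0.0134), and 0.819 without TGNT 1 and TGTR 5. The median r was 0.06 and 0.320 for astrocytes, 0.123 and 0.286 for microglia, and -0.456 and -0.572 for endothelial cells. Without these rats they were -0.00348 and 0.00565, 0.369 and 0.0153, and -0.506 and -0.366. With Calb1 left out as well they were -0.06 and -0.09, 0.277 and -0.06, and -0.582 and -0.401. The endothelial medians were thus below 0 in both tables throughout. For Slc1a2, Csf1r and Flt1, the most abundant of these lists, none of 6 relations with Prox1 passed, with exact permutation p from 0.0583 to 0.819 and adjusted p from 0.11 to 0.845. The farthest from 0 was that of Flt1 in the genotype table, with r -0.748 (rho -0.830 with exact p = 0.0348) and -0.546 without WTNT 1 and WTNT 3.

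Among other neurons, the 8 interneuron genes had a median r of -0.509 and -0.345, with 2 and 3 genes above 0. The 7 genes of all mature neurons had 0.184 and 0.229, with 5 and 6 above 0. Without these rats the medians were -0.509 and -0.425, and -0.00720 and -0.352. Within the interneuron list, Npy had r of 0.317 and 0.827 with the mean of the members, and Gad1 -0.649 and -0.641. Gad1, the most abundant interneuron gene, had r with Prox1 of -0.775 (exact permutation p = 0.0540, adjusted p = 0.108, rho -0.758 with exact p = 0.0717) and -0.762 (exact permutation p = 0.0207, adjusted p = 0.0552, rho -0.830 with exact p = 0.00567), and -0.592 and -0.809 without the 2 farthest rats. Map2, of the mature neuron list, had 0.02 and 0.201 (exact permutation p = 0.962 and 0.612, rho 0.05 and -0.03). The mature neuron genes differed in their r with the mean of the members. Rbfox3 had 0.885 and 0.904 and Nefl 0.769 and 0.803, while Snap25 had -0.730 and -0.196 and Syt1 -0.534 and 0.229. Of the thalamus and habenula genes 8 of 9 were found, and the 3 with at least 50 counts had a median r of -0.598 and -0.05, but 0.224 and -0.337 without these rats. Of the meninges and fibroblast genes 8 of 8 were found, and the 5 with at least 50 counts had -0.00665 and -0.696 (-0.133 and -0.470 without these rats). The 3 thalamus and habenula genes differed in their r with the mean of the members. Plekhg1 had 0.383 and 0.795, while Tcf7l2 had -0.598 and -0.0458 and Prkcd -0.802 and -0.858. Plekhg1, of the thalamus list, had r with Prox1 of 0.556 (exact permutation p = 0.16, adjusted p = 0.223, rho 0.685 with exact p = 0.0938) and 0.905 (exact permutation p = 0.00492, adjusted p = 0.0171, rho 0.721 with exact p = 0.0326), and 0.411 and 0.720 without the 2 farthest rats. No choroid plexus gene had 50 counts in both tables. Calml4, their most abundant gene in the genotype table at 2.41 to 8.12 RPM, had r of 0.930 with Prox1 (exact permutation p = 0.00167, adjusted p = 0.0133, rho 0.879 with exact p = 0.00917), and 0.832 without WTNT 1 and WTNT 3. Ttr in the treatment table had -0.540 (exact permutation p = 0.125, adjusted p = 0.201, rho -0.418 with exact p = 0.251), and -0.03 without TGNT 1 and TGTR 5. In the genotype table the choroid plexus list summed to 21.7 RPM in WTNT 3, lowest in Prox1, and to 18.2 RPM in WTNT 1, highest in Prox1. Its sum ran from 12.1 RPM in TGNT 2 to 28.2 RPM in WTNT 4. The r of Calml4 thus holds for that gene and not for its list.

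Across groups, no gene of these lists was called by edgeR in either table. Between TGNT and WTNT, all 8 oligodendrocyte genes had log2 fold changes below 0, with a median of -0.19 (-0.06 without WTNT 3), and 2 had an unadjusted p under 0.05. Mbp was the one with the smallest p, at -0.38 (SE 0.171, adjusted p = 1). All 7 microglia genes lay above 0, with a median of 0.10 (6 of 7 and 0.04 without WTNT 3), as did 7 of 8 interneuron genes. Among the hippocampal fields, 5 of 6 CA1 genes, 3 of 3 CA2 genes and 3 of 4 CA3 genes lay below 0, with medians of -0.13, -0.26 and -0.14 (-0.26 for CA3 without WTNT 3). The medians of the remaining lists were 0.01 for immature neurons, 0.10 for mossy cells (0.27 without WTNT 3), 0.10 for neocortex and subiculum, -0.28 for thalamus and habenula, 0.06 for choroid plexus (-0.03 without WTNT 3), 0.16 for meninges and fibroblasts, 0.09 for interneurons, -0.03 for mature neurons, 0.03 for astrocytes and -0.05 for endothelial cells. These medians kept their sign with RLE factors, upper quartile factors or library size only.

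Between TGTR and TGNT, all 13 choroid plexus genes had log2 fold changes above 0, with a median of 3.14, and 6 had an unadjusted p under 0.05. Without TGTR 5 their median was 0.50 and 10 of 13 lay above 0, with TGTR 6 at 156 RPM still in the group. The other 4 treated rats had 14.7 to 16.6 RPM, below every TGNT rat (18.0 to 29.5 RPM). Meninges and fibroblast genes had a median of 0.80, with 7 of 8 above 0, but -0.28 and 1 of 8 without TGTR 5. All 8 oligodendrocyte genes (7 with upper quartile factors) and all 5 endothelial genes also lay above 0, with medians of 0.22 and 0.18. Without TGNT 1, 6 of 8 oligodendrocyte genes did, with a median of 0.12. Below 0 lay 4 of 4 CA3 genes (median -0.23) and 3 of 3 CA2 genes (median -0.19), while 5 of 6 CA1 genes lay above it (median 0.19). The CA3 and CA2 medians were -0.14 and -0.13 without TGTR 5, and -0.38 and -0.37 without TGNT 1. All 7 mature neuron genes and all 7 astrocyte genes also lay below 0 (medians -0.04 and -0.05), and 6 of 7 and 4 of 7 did without TGTR 5 (-0.00821 and -0.01). Pvrl3 (nectin-3), an adhesion gene with the smallest p of the CA3 list, had a log2 fold change of -0.25 (SE 0.0773, adjusted p = 0.957). The remaining medians were -0.01 for immature neurons, 0.14 for mossy cells, 0.25 for neocortex and subiculum, -0.11 for thalamus and habenula, 0.17 for interneurons and -0.03 for microglia, of which those of immature neurons and microglia turned to 0.02 and 0.000318 with library size only. Without TGNT 1 the medians of mossy cells and of neocortex and subiculum were 0.26 and 0.43, and that of immature neurons was -0.05 and that of microglia 0.00162 without TGTR 5. Whether any of these lists bears on the members' levels was not tested.

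Genes outside all lists were ranked by how closely they ran with the members in both tables, over the 10 rats of each and among 9124 genes averaging 50 counts or more. The median r of all 9219 such genes with the mean of the members was -0.00246 in the genotype table and 0.09 in the treatment table. An r of at least 0.8 was reached by 477 genes (5.17%) in the genotype table, by 867 (9.4%) in the treatment table and by 255 (2.77%) in both. The 8 genes most like the members were Slc7a14 (0.976 and 0.970), Ehd3 (0.968 and 0.967), Map2k1 (0.966 and 0.987), B4galnt1 (0.965 and 0.954), Gng7 (0.963 and 0.951), Smpdl3b (0.984 and 0.948), Cdip1 (0.945 and 0.951) and Bhlhe22 (0.970 and 0.944). They include a kinase of the MAP kinase cascade (Map2k1), an enzyme of ganglioside synthesis (B4galnt1), a G protein subunit (Gng7) and a basic helix-loop-helix transcription factor (Bhlhe22).

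Genes that ran opposite to the members were fewer, with r of -0.8 or lower in both tables for 73 genes (0.792%). The 4 most opposite were Ddah1 (-0.950 and -0.955), Rai14 (-0.938 and -0.933), Hivep1 (-0.902 and -0.933) and Cdh7 (-0.912 and -0.900). Without WTNT 3 the 8 alike genes had r from 0.908 to 0.973 and the 4 opposite ones from -0.926 to -0.735. Without TGNT 1 and TGTR 5 these ran from 0.741 to 0.958 and from -0.7998 to -0.622. None of these 12 genes was called between groups. Bhlhe22, for example, averaged 301 ± 107 RPM (SD, n = 5) in WTNT against 287 ± 58.4 RPM (SD, n = 5) in TGNT, with a log2 fold change of -0.06 (SE 0.217, adjusted p = 1). Map2k1 had log2 fold changes of -0.00923 and -0.03. Of the 12, Hivep1 was the 1 with an unadjusted p under 0.05, at 0.38 between TGTR and TGNT (SE 0.146, adjusted p = 0.964).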

How the data were processed

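For each table the authors deposited estimated counts per gene symbol, made with bcl2fastq 2.17, Bowtie2 2.1.0 and RSEM 1.2.15 on build rn6 and not normalized. They also deposited a signal in RPM, scaled by the authors with TMM factors of edgeR over the 10 rats of a table. Read filters and the annotation are not stated. Samples were matched to columns by title, and 0 columns were left without a sample.

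Counts were rounded and fitted in R 4.3.3 with edgeR 4.0.16 (TMM, quasi-likelihood test) over all 17168 genes of a table, and the two-sided p-values were adjusted over all of them (Benjamini-Hochberg). Genes with a 1.5-fold or larger change and an adjusted p under 0.05 were called. Alternatives were RLE and upper quartile factors, library size only, filterByExpr, DESeq2 1.42.0, limma-trend of limma 3.58.1 on log2 RPM with 1 or 0.1 added, a block for the replicate number, other call rules and fits without each rat in turn. Spreads and list medians without the rats that stood apart were added after the data were seen. The fits were also tested on simulated data, and the outcome is not reported here. RPM means of 12 member comparisons were tested by exact permutation of the rats.

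Correlations used log2(RPM + 0.1) with group means removed, in Python 3.11.15 with NumPy 2.4.6, pandas 2.3.3 and SciPy 1.17.1. They were permuted exactly within groups (14400 arrangements in the genotype table and 17280 in the treatment table). Of the pairs planned among all 10 symbols, the 15 per table among the 6 measured members could be used.

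The named genes are the 10 members, the most abundant gene and the gene with the smallest p of each of 16 other lists, any called list gene, and for likeness the 8 most alike and 4 most opposite genes outside the lists. App, the check of the genotype, is named outside this rule. So are Tcf7l2, Rbfox3, Snap25, Syt1, Calcrl and Npy, given to show single genes of their lists. The relation with Prox1 of 1 gene under this rule is not reported here. The 16 lists held 130 genes, of which 122 were found. Npnt, Maml2, Eomes, Draxin, Map3k15, Ccdc3, Cdh24 and Pou4f1 were not found and were not analysed here. The members and lists were chosen with earlier results of these data known. Counts near 0 and floors cover counting error only.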

Additional observations from a re-analysis of the deposited data

Results flagged for a closer look

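The highest and lowest rat of each group were compared with the rest by the gap to the nearest rat as a share of the whole range. This was done in 24 groups, 4 groups for each of 6 members, and chance picks about 5% of groups. A rat stood far from the rest in 2 groups, both through TGNT 1 of the genotype table. C1ql2 measured 28.6 RPM in that rat, against 14.8 RPM in the next TGNT rat. Stxbp6 measured 90.8 RPM in it, against 61.2 RPM in the next. Both genes run with Prox1 between rats, so these are not separate observations.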

How the results depend on the processing

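The count of members called was 0 under all alternatives in both comparisons, except that a rule of unadjusted p under 0.05 gave 1 (Calb1) between TGNT and WTNT. Without single rats the median log2 fold change of the members ranged from -0.26 to 0.09 between genotypes and from -0.09 to 0.09 between treatments, and the median correlation from 0.862 to 0.945 and from 0.643 to 0.856. With Spearman's rho the median correlation was 0.806 and 0.612, and in the treatment table it was 0.690 with library size only. Of 108 fold changes of single members under alternatives, 19 changed sign between genotypes and 14 between treatments, and the smallest adjusted p was 0.768 and 0.874. Between genotypes, C1ql2 was 0.065 with a replicate block, 0.17 with limma-trend and 1 added to RPM, and 0.23 with 0.1 added. C1ql3 was -0.0075 with RLE factors, -0.00147 with upper quartile factors, -0.015 with DESeq2 and -0.0039 with filterByExpr. Between treatments, the replicate block gave 0.069 for Prox1 and 0.084 for C1ql2, and upper quartile factors gave -0.0034 for Stxbp6. Leaving out single rats gave ranges across 0 between genotypes for C1ql2 (-0.33 to 0.23), C1ql3 (-0.17 to 0.13) and Stxbp6 (-0.22 to 0.049). Between treatments it did so for Prox1 (-0.20 to 0.066), C1ql2 (-0.25 to 0.060), Calb1 (-0.069 to 0.18), Trpc6 (-0.045 to 0.22) and Stxbp6 (-0.13 to 0.11). The cause was not tested. Rats with the same number had r from -0.240 to 0.464 between genotypes and from -0.611 to 0.0641 between treatments, and the best match had the same number for 2 of 5 and 0 of 4 rats. The labels name no batch, and none could be tested. Depth limits Tdo2, at 2 counts or fewer in every rat, and C1ql2 in WTNT 3, at 20 counts.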
